A study of Homo sapiens with 12 samples.

Results

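TWIST1, TWIST2, SNAI1, SNAI2, ZEB1 and ZEB2 encode the transcription factors best known for driving the epithelial-mesenchymal transition (EMT), and CDH1, CDH2 and VIM encode E-cadherin, N-cadherin and vimentin, by which that transition is usually read. These 9 genes, listed by symbol and found in the count files by their Ensembl identifiers, were followed through 12 RNA-seq libraries that list 63677 identifiers. The libraries came from MiaPaca2, an established human pancreatic ductal adenocarcinoma (PDAC) cell line with an unmodified genotype, and there were 4 groups of 3. All cells were harvested after 24 h. The control group, Con, received DMSO. The CPT group received 1 µM calcipotriol, a Vitamin D analog. The GTA+5-Aza group received 2 mM GTA, an acetate precursor that raises histone acetylation, with 1 µM 5-Aza, an inhibitor of DNA methyltransferases. The CPT+GTA+5-Aza group received all 3 agents at those doses. GTA and 5-Aza were always given together, so their separate contributions cannot be told apart, and all the data are from 1 cell line. Cells given GTA+5-Aza are called epigenetically primed, and the others unprimed. The methods call the samples of an experiment independent in general terms, without naming the sequencing libraries, and the labels do not mention separate cultures, so p-values measure the spread between libraries, which may be technical.

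The EMT is a program in which epithelial cells loosen their junctions and gain motility. The TWIST proteins are basic helix-loop-helix factors that pair with E proteins on E-box DNA, while the SNAI (Snail and Slug) and ZEB proteins are zinc finger factors that bind E-boxes in epithelial genes and repress them, with CDH1 as the classical target. Loss of E-cadherin with gain of N-cadherin is called the cadherin switch, and vimentin is the intermediate filament of mesenchymal cells. In PDAC, quasi-mesenchymal lines such as MiaPaca2 are known for low E-cadherin and high vimentin.

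Because 5-Aza inhibits the enzymes that methylate CG dinucleotides, the promoters of the 3 members at or near 0 counts that the RefSeq table holds are shown first. Methylation of these promoters was not measured in these libraries. The table held promoters of 5 of the 9 members, TWIST2, ZEB1, ZEB2, CDH2 and VIM. Each window is 300 bases of GRCh38.p14 around a start site, written 5′ to 3′ on the gene's strand, with every CG in capitals. Where a gene has several windows, the most upstream is shown.
TWIST2, chr2:238847835-238848134, plus strand: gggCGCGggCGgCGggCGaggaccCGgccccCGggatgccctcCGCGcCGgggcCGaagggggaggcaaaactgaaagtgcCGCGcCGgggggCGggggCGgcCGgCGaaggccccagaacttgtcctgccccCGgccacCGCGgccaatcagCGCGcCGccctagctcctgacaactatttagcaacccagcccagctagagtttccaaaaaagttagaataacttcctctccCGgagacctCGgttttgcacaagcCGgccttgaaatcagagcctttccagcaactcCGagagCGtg
ZEB2, chr2:144520070-144520369, minus strand: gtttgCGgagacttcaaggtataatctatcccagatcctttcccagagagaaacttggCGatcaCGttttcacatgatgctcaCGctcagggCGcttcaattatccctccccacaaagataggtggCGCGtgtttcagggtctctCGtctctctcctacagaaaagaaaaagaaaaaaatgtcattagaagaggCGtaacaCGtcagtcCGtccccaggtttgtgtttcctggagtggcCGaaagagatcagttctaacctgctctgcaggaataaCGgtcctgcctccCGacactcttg
CDH2, chr18:28177081-28177380, minus strand: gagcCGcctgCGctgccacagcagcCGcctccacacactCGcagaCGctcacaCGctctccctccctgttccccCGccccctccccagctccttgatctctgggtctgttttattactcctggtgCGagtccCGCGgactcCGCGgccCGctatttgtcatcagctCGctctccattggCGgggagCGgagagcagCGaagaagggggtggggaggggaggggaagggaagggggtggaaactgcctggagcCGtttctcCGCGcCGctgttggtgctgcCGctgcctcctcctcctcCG
The TWIST2 window holds 29 CG dinucleotides, and 24.2% of the 35116 windows in the table hold at least as many. The CDH2 window holds 23, a number reached by 35.8% of windows, and the ZEB2 window holds 14, reached by 50.3%. For comparison, the window of the highly expressed VIM holds 10 CG, reached by 56.4% of windows, and the 7 windows of ZEB1 hold 7 to 35. The E-box letters CACCTG, with their reverse complement CAGGTG, were absent from the windows of TWIST2, ZEB2, CDH2 and VIM and occurred in 2 of the 7 ZEB1 windows. They occur in 20.6% of all windows.

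The miR-200 family is the best known microRNA brake on ZEB1 and ZEB2, and its seed (bases 2 to 8, in capitals) decides which transcripts it pairs with. The mature RefSeq sequences fall into a pair of seed groups that differ at 1 base. The first seed, AAUACUG, is shared by 3 members.
miR-200b-3p: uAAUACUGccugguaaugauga
miR-200c-3p: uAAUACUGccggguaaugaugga
miR-429: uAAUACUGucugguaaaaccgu
The second seed, AACACUG, is shared by 2 members.
miR-200a-3p: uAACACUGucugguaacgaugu
miR-141-3p: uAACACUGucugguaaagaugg
The genes for the 5 hairpins (MIR200A, MIR200B, MIR200C, MIR141 and MIR429) and the host transcript MIR200CHG had 0 counts in all 12 libraries. The labels do not describe a small RNA library, so a mature microRNA need not be seen in these counts.

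VIM was by far the most abundant of the 9 genes, and 4 members were at or near 0 in every library. As RPKM (counts scaled by library and by kilobase of exon, on library sizes scaled by the trimmed mean of M values, TMM), VIM was at 1198 ± 12 (SD, n = 3) in Con, ZEB1 at 6.95 ± 0.37, SNAI2 at 5.81 ± 0.42 and SNAI1 at 2.32 ± 0.47. These 4 genes kept that order in Con and CPT with no overlap of libraries between neighbours. TWIST1 was at 0.0636 RPKM in Con and 0 in CPT. In primed cells TWIST1 moved up to the level of its relatives, at 5.59 ± 1.41 RPKM in GTA+5-Aza and 5.33 ± 0.20 in CPT+GTA+5-Aza. There its libraries overlapped those of ZEB1 above it, at 5.98 ± 0.28 and 6.05 ± 0.69, and those of SNAI2 below it, at 4.30 ± 0.31 and 4.77 ± 0.62, so these neighbours were not ordered beyond their spread. SNAI1 remained below them, at 3.02 ± 0.40 and 3.31 ± 0.85. VIM made up 0.54% to 0.65% of all counts in a library, and ranked 4 by count among all genes in each unprimed library and 6 in each primed one.

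**Figure D1:**
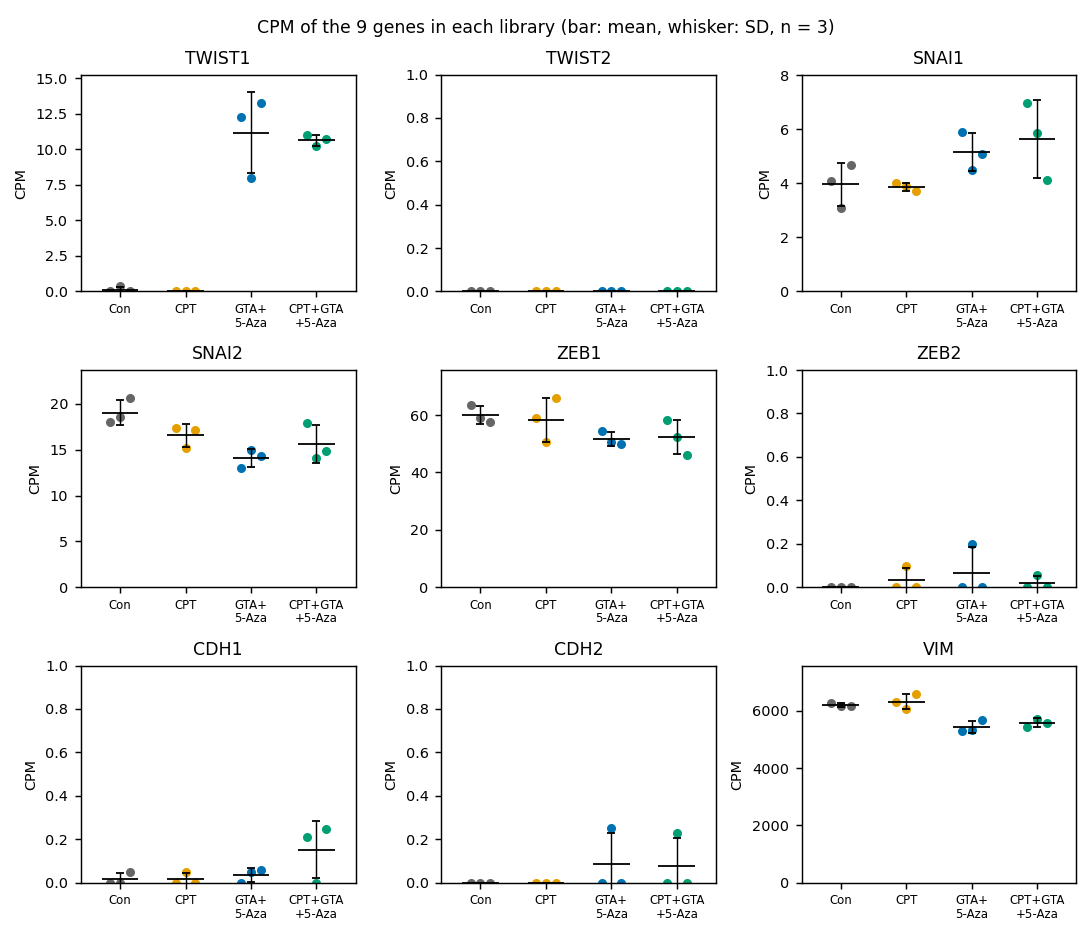
CPM (counts divided by the TMM-scaled library size) of the 9 genes in each of the 12 libraries, with 1 panel per gene and its own axis from 0; points are libraries, the bar is the group mean and the whisker the SD (n = 3). TWIST1 lies between 7.96 and 13.3 CPM in the 6 primed libraries and at 0.381 or 0 in the unprimed ones, while TWIST2, ZEB2, CDH1 and CDH2 stay under 0.26 CPM.

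Of the 9 members, 5 (TWIST1, SNAI1, SNAI2, ZEB1 and VIM) had enough counts to be tested, and TWIST2, ZEB2, CDH1 and CDH2 did not pass the filter on low counts. TWIST1 passed that filter through the primed groups alone, where it was high. It could thus be called only as higher, and its place in the counts of called members below carries that limit. A gene is said to rise or fall where edgeR's quasi-likelihood test gave a Benjamini-Hochberg adjusted p under 0.05 over all 17123 genes tested. Priming without CPT (GTA+5-Aza against Con) gave 3 called members, TWIST1 higher and SNAI2 and VIM lower, where 17.5% of all tested genes were called, 9.95% as higher and 7.53% as lower. Priming under CPT (CPT+GTA+5-Aza against CPT) gave 2, TWIST1 higher and VIM lower, against a background of 17%, with 9.57% higher and 7.39% lower. The same 2 were called in CPT+GTA+5-Aza against Con, where the background was 16.8%, with 9.62% higher and 7.16% lower. With priming averaged over both CPT states, so that 6 primed libraries faced 6 unprimed, all 5 tested members were called, TWIST1 and SNAI1 higher and SNAI2, ZEB1 and VIM lower, where 30.9% of all tested genes were called, 16.8% as higher and 14% as lower. The median log2 fold change of all genes in that comparison was 0.0059. The comparisons without CPT and with the full combination share the Con libraries. By the rule of a fold change above 1.5 with an unadjusted P under 0.05, only TWIST1 of the 9 was a differentially expressed gene in each of these 4 comparisons, and 8.44%, 8.67%, 8.32% and 9.6% of tested genes met that rule.

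TWIST1 went from almost no reads to an expressed gene. TWIST1 (ENSG00000122691) lies on the minus strand of chromosome 7, from 19020991 to 19117636 in GRCh38 by GENCODE v44, a span that includes far-reaching annotated transcripts. In Con its counts were 0, 8 and 0, and in CPT they were 0, 0 and 0. In GTA+5-Aza they were 230, 159 and 235, and in CPT+GTA+5-Aza 208, 180 and 175. Every primed library thus stood far above every unprimed one, and the only unprimed reads came from Con replicate 2. The CPM were 11.2 ± 2.82 in GTA+5-Aza and 10.6 ± 0.390 in CPT+GTA+5-Aza, against 0.127 ± 0.220 in Con and 0 in CPT. The summed counts, 624 against 8, gave an 83.8-fold rise in GTA+5-Aza over Con (95% counting interval 42.3 to 195), and edgeR's adjusted p was 8.91e-10. Without Con replicate 2 the rise was at least 146-fold, since a count of 0 over the group allows up to 3 counts. In CPT+GTA+5-Aza over CPT, 563 counts faced 0, so the rise was at least 202-fold, and edgeR's adjusted p was 3.37e-10. CPT+GTA+5-Aza over Con gave 80.6-fold (40.6 to 188), with an edgeR adjusted p of 8.2e-10. These intervals and limits cover counting error only.

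Genes that go from silent to expressed were few. Of 42687 identifiers with at most 10 counts summed over the 6 unprimed libraries, 11010 of which had any count in the 12 libraries, 6 reached at least 1 CPM in every primed library, and TWIST1 ranked first of them with a mean of 10.9 CPM. Among these 6 are 4 protein-coding genes. The others are SVIP, a small protein of endoplasmic reticulum degradation, at a mean of 6.97 CPM, TKTL1, a transketolase-like gene, at 2.24 CPM, and ID4, an inhibitor of basic helix-loop-helix factors, at 1.73 CPM. Con replicate 2, which held the 8 TWIST1 reads, had no read of SVIP, TKTL1 or ID4. All 6 were picked by their own counts, so this is a description without a test.

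The tested neighbour of TWIST1 was not called. Within 500 kb, 9 genes are annotated and 1 had enough counts to be tested, the histone deacetylase gene HDAC9, whose log2 fold change was -0.02 (edgeR adjusted p = 0.852) with priming averaged over CPT. The lncRNA ENSG00000232821, which overlaps the annotated span of TWIST1 on the opposite strand, had 0 counts in all 6 unprimed libraries, 2, 16 and 3 in GTA+5-Aza, and 0, 6 and 12 in CPT+GTA+5-Aza. Whether counting used strand is not given in the sources used here, so reads of such antisense partners cannot be told apart from those of the member. The paralog TWIST2 (ENSG00000233608, chromosome 2, 238848032 to 238910534, plus strand), whose CG-rich promoter is printed above, had 0 counts in all 12 libraries. A count of 0 over a group allows up to 3 counts, or 0.0495 to 0.0567 CPM for TWIST2. Near TWIST2, HDAC4 was the gene within 500 kb that changed by more than 1.5-fold, and it fell by 1.19 on the log2 scale (edgeR adjusted p = 1.22e-11).

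The Snail genes moved in opposite directions, each by a small amount. SNAI1 (ENSG00000124216, chromosome 20, 49982980 to 49988886, plus strand), which encodes Snail, had 78, 65 and 96 counts in Con, 73, 79 and 68 in CPT, 110, 90 and 90 in GTA+5-Aza, and 132, 103 and 67 in CPT+GTA+5-Aza. As CPM this was 3.96 ± 0.80 in Con, 3.87 ± 0.15 in CPT, 5.16 ± 0.69 in GTA+5-Aza and 5.64 ± 1.45 in CPT+GTA+5-Aza. Primed libraries were mostly higher, but the lowest in each primed group, at 4.51 and 4.10 CPM, fell below the highest Con library, at 4.67. Averaged over CPT, SNAI1 rose by 0.46 ± 0.16 on the log2 scale (estimate ± SE, edgeR adjusted p = 0.0315). The separate values, 0.38 without CPT (edgeR adjusted p = 0.288) and 0.55 under CPT (0.109), did not pass the test. The averaged call was lost without Con replicate 2 (edgeR adjusted p = 0.0839), CPT replicate 3 (0.0503), GTA+5-Aza replicate 1 (0.0851) or 3 (0.0505), or CPT+GTA+5-Aza replicate 1 (0.115) or 2 (0.0621). It was also lost without a filter on low counts (0.0509). Without CPT+GTA+5-Aza replicate 3 the comparison under CPT passed, at 0.73 (0.0484).

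SNAI2 (ENSG00000019549, chromosome 8, 48917598 to 48921740, minus strand), which encodes Slug, had 343, 389 and 424 counts in Con, 317, 308 and 314 in CPT, 243, 299 and 254 in GTA+5-Aza, and 340, 249 and 242 in CPT+GTA+5-Aza. Its CPM were 19.1 ± 1.37, 16.6 ± 1.24, 14.1 ± 1.02 and 15.6 ± 2.04 in that order of groups. All 3 GTA+5-Aza libraries, at 13.0 to 15 CPM, lay below all Con libraries, at 18 to 20.6, whereas CPT+GTA+5-Aza, at 14.1 to 18, overlapped CPT, at 15.2 to 17.4. SNAI2 fell by 0.43 on the log2 scale, or 26.0%, in GTA+5-Aza against Con (SE 0.13, edgeR adjusted p = 0.019). In CPT+GTA+5-Aza against CPT the log2 fold change was -0.08 (95% interval -0.35 to 0.19, edgeR adjusted p = 0.74). The difference between those responses, tested as the interaction of CPT and priming, was 0.35 (SE 0.18, edgeR adjusted p = 1), so a different response under CPT was not shown. Averaged over CPT, SNAI2 fell by 0.26 ± 0.09 on the log2 scale (edgeR adjusted p = 0.0321). The call against Con was lost without Con replicate 3 (edgeR adjusted p = 0.0967) or GTA+5-Aza replicate 1 (0.0965) or 3 (0.0517). The averaged call was lost without Con replicate 3 (edgeR adjusted p = 0.0827), CPT replicate 1 (0.0673) or 3 (0.0523), GTA+5-Aza replicate 1 (0.0863) or 3 (0.0505), or CPT+GTA+5-Aza replicate 2 (0.0974) or 3 (0.074). Scaling by total count (0.0728) and testing without a filter on low counts (0.0668) also ended it.

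**Figure D2:**
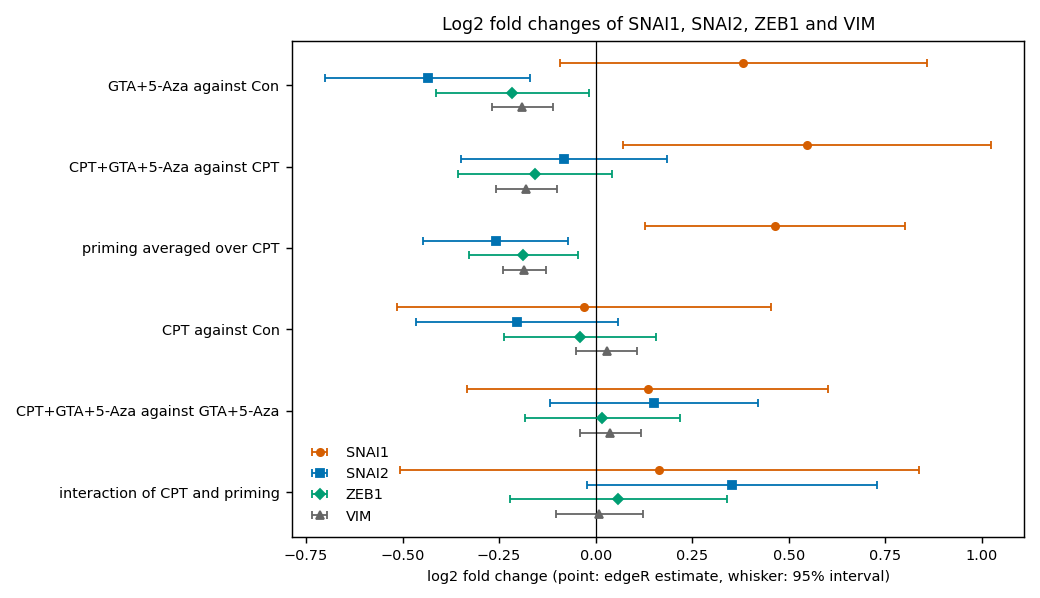
Log2 fold changes of SNAI1, SNAI2, ZEB1 and VIM in 6 comparisons (horizontal axis; points are edgeR estimates, whiskers 95% intervals; 3 libraries per group). TWIST1 is left out, since its estimate against 0 counts depends on the prior count. With priming averaged over CPT, SNAI1 lies at 0.46 and SNAI2, ZEB1 and VIM at -0.26, -0.19 and -0.18, while the intervals of all 4 span 0 in both CPT comparisons.

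ZEB1 was expressed in all groups and fell slightly, and ZEB2 was near 0 throughout. ZEB1 (ENSG00000148516, chromosome 10, 31318495 to 31529814, plus strand) had 1211, 1237 and 1185 counts in Con, 1071, 1027 and 1207 in CPT, 1020, 1014 and 883 in GTA+5-Aza, and 1102, 924 and 755 in CPT+GTA+5-Aza. The CPM were 60.1 ± 3.19, 58.4 ± 7.69, 51.7 ± 2.46 and 52.3 ± 5.99. GTA+5-Aza, at 49.9 to 54.5 CPM, lay wholly below Con, at 57.6 to 63.7, but the primed and unprimed CPT groups overlapped. Averaged over CPT, ZEB1 fell by 0.19 ± 0.07 on the log2 scale (edgeR adjusted p = 0.038). Priming gave -0.22 without CPT (edgeR adjusted p = 0.129) and -0.16 under CPT (0.298), neither of which passed. The averaged call was lost without Con replicate 1 (edgeR adjusted p = 0.0905), CPT replicate 1 (0.0637) or 3 (0.109), GTA+5-Aza replicate 2 (0.0689) or 3 (0.0847), or CPT+GTA+5-Aza replicate 2 (0.0693) or 3 (0.133), and when libraries were scaled by total count (0.11). Without CPT replicate 2 the comparison with CPT passed, at -0.26 (0.0468).

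ZEB1-AS1, transcribed from the opposite strand at the ZEB1 promoter, held 11.4% to 17.5% of the summed ZEB1 and ZEB1-AS1 counts. Its log2 fold change with priming was -0.03 (edgeR adjusted p = 0.881). Counting both as 1 feature left the averaged fall at -0.16 (0.0484). ZEB2 (ENSG00000169554, chromosome 2, 144364364 to 144521057, minus strand) had 7 counts in all, 2 in CPT replicate 2, 4 in GTA+5-Aza replicate 2 and 1 in CPT+GTA+5-Aza replicate 2. Its antisense gene ZEB2-AS1 had 10 counts, all in Con replicate 2, the library that also held the only unprimed TWIST1 reads.

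Both sides of the cadherin switch were near 0. CDH1 (ENSG00000039068, chromosome 16, 68737292 to 68835537, plus strand) had 0, 0 and 1 counts in Con, 0, 1 and 0 in CPT, 0, 1 and 1 in GTA+5-Aza, and 4, 0 and 4 in CPT+GTA+5-Aza. CDH2 (ENSG00000170558, chromosome 18, 27932879 to 28177946, minus strand) had 5 counts in GTA+5-Aza replicate 2, 4 in CPT+GTA+5-Aza replicate 2 and 0 in the other 10 libraries. The highest means were 0.152 ± 0.133 CPM for CDH1, in CPT+GTA+5-Aza, and 0.0835 ± 0.145 CPM for CDH2, in GTA+5-Aza, and in both the SD was close to the mean or above it. A count of 0 over those groups would allow up to 0.0567 and 0.0532 CPM. With no filter on low counts, CDH2's averaged comparison gave an unadjusted P of 0.0201 and an edgeR adjusted p of 0.101, and CDH1's gave 0.234 and 0.549. A switch from CDH1 to CDH2, or back, was not detectable at this depth. Near CDH1, the only gene within 500 kb that changed by more than 1.5-fold was ESRP2, an epithelial splicing factor, described with the epithelial genes.

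VIM was lower in primed cells with and without CPT. VIM (ENSG00000026025, chromosome 10, 17228241 to 17237593, plus strand) had 119302, 129496 and 126731 counts in Con, 114753, 123422 and 120798 in CPT, 99340, 106571 and 100430 in GTA+5-Aza, and 102832, 100942 and 91274 in CPT+GTA+5-Aza. These were 6202 ± 62.1, 6325 ± 261, 5438 ± 201 and 5584 ± 149 CPM. Every primed library, at most 5731 CPM, lay below every unprimed one, at least 6071. Priming changed VIM by -0.19 on the log2 scale without CPT (SE 0.04, edgeR adjusted p = 0.000949) and by -0.18 under CPT (0.00158). Averaged over CPT, VIM fell by 12% (log2 -0.18 ± 0.03, edgeR adjusted p = 7.4e-06). In CPT+GTA+5-Aza against Con it was -0.15 (edgeR adjusted p = 0.00656), a call lost without CPT+GTA+5-Aza replicate 1 (0.0519) and with the likelihood ratio test (0.0518).

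A pair of antisense lncRNAs overlaps VIM, and both carried many counts. VIM-AS1 was at 2121 ± 136 CPM in Con, 2144 ± 95.5 in CPT, 2086 ± 239 in GTA+5-Aza and 2084 ± 158 in CPT+GTA+5-Aza, and its averaged log2 fold change was -0.03 (edgeR adjusted p = 0.633). ENSG00000234961 was at 1848 ± 49.3, 1887 ± 243, 1520 ± 75.8 and 1555 ± 43.0 CPM, and fell by 0.28 on the log2 scale (edgeR adjusted p = 1.43e-05). VIM-AS1 held 24.3% to 29.3% of the summed VIM and VIM-AS1 counts, and strandedness of the counting is not given, so the 3 genes' reads cannot be told apart. Summed as 1 feature, VIM and both antisense genes still fell, by 0.17 on the log2 scale (edgeR adjusted p = 5.33e-05).

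**Figure D3:**
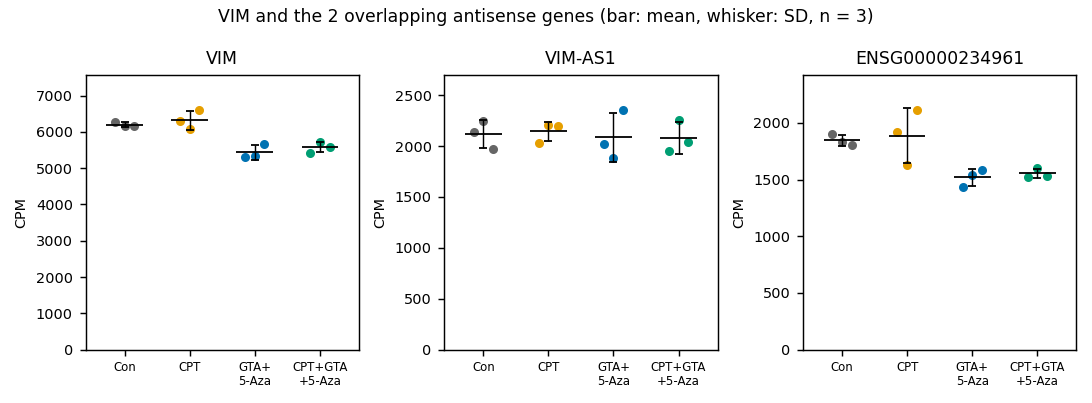
CPM (TMM-scaled) of VIM and its overlapping antisense genes VIM-AS1 and ENSG00000234961 in each library, with axes from 0, the bar at the group mean and the whisker the SD (n = 3). VIM and ENSG00000234961 are lower in the primed groups, at 5438 and 5584 CPM and at 1520 and 1555 CPM, while VIM-AS1 stays between 2084 and 2144.

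CPT changed none of the members by the adjusted test. Whether CPT was given to unprimed or to primed cells, edgeR called 0 of the 5 tested members, with 0% of all genes called in both. DESeq2 also called 0 of the 5, and its calls over all genes are not given here. At an unadjusted P under 0.05 there was 1 member in unprimed cells, TWIST1 (edgeR adjusted p = 1), and 0 in primed cells. Those shares were 4.28% and 2.71% of all tested genes. That TWIST1 value rests on the 8 counts of Con replicate 2, since without that library both groups stood at 0. For VIM, the most precisely measured member, the log2 fold change with CPT was 0.03 (95% interval -0.05 to 0.11) in unprimed cells and 0.04 (-0.04 to 0.12) in primed cells. For SNAI1, the least precise of the 4 members expressed in all groups, the intervals were -0.51 to 0.45 and -0.33 to 0.60. Under CPT in primed cells, TWIST1 gave -0.07 (-0.62 to 0.48). The interaction of CPT and priming was called for 0 of the 5 by edgeR and by DESeq2, with 0% of all genes called by edgeR and 1 member at an unadjusted P under 0.05, a level that 2.63% of all genes reached. That member was again TWIST1, at a log2 value of 4.32 (edgeR adjusted p = 1), and -0.07 without Con replicate 2. In CPT against Con and in the interaction, TWIST1 also met the rule of a fold change above 1.5 with an unadjusted P under 0.05. Both instances rest on the 8 counts of Con replicate 2, and the shares of all genes meeting that rule are not given here.

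The other genes of the pathway were taken from lists by role, all with priming averaged over CPT, where the edgeR test called 16.8% of all genes as higher and 14% as lower. At an unadjusted P under 0.05 the shares of all genes were 21.3% higher and 18.8% lower. Of 29 epithelial genes that EMT factors are known to repress, 18 were tested, 7 were higher and 1 lower, and the median log2 fold change was 0.15. Among the 18, TJP3 and OVOL2, named after their values were seen, passed the filter on low counts only with primed libraries included. ESRP2, which promotes epithelial splicing, was at 1.01 ± 0.66 CPM in Con, 0.762 ± 0.30 in CPT, 2.03 ± 0.53 in GTA+5-Aza and 2.32 ± 0.27 in CPT+GTA+5-Aza, and it rose by 1.29 on the log2 scale (edgeR adjusted p = 0.00236). PKP3, a desmosomal plakophilin named after its values were seen, was the one that fell, by 0.30 (edgeR adjusted p = 0.00177). Of 19 mesenchymal genes, 13 were tested, 8 were higher and 0 lower (10 higher and 0 lower at an unadjusted P under 0.05), and the median was 0.27. Among the tested genes, COL1A1, TNC and ACTA2 passed the filter on low counts only with their primed libraries. These genes could hardly have been called lower. ACTA2, named after its values were seen, was at 0.283 CPM in Con, 0.219 in CPT, 0.612 in GTA+5-Aza and 0.664 in CPT+GTA+5-Aza. ITGA5, the fibronectin receptor subunit, rose by 0.71 (1.82e-08 by edgeR), from 40.3 ± 4.47 CPM in Con to 65.0 ± 8.82 in GTA+5-Aza. COL1A1 and CCN2, which encode matrix proteins, were at 0.135 and 0.816 CPM in Con and at 1.70 and 3.25 in GTA+5-Aza, and rose by 3.54 and 1.63 on the log2 scale (edgeR adjusted p = 2.87e-06 and 7.39e-05). TNC, the tenascin C gene, was at 0.677 ± 0.31 CPM in Con, 0.120 ± 0.072 in CPT, 1.06 ± 0.45 in GTA+5-Aza and 1.35 ± 0.19 in CPT+GTA+5-Aza. Its averaged rise of 2.02 on the log2 scale (edgeR adjusted p = 0.000917) joined 3.39 under CPT (0.000938) and 0.64 without it (0.494), which did not pass, and the difference between the 2 was not shown by the interaction (1). Genes of both the epithelial and the mesenchymal list thus rose.

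Among the partners of TWIST1, ID4 went from almost no reads to a low level. Of 14 basic helix-loop-helix partners and relatives of TWIST1, 6 were tested, 2 were higher and 2 lower, and their median on the log2 scale was -0.09. ID4, which sequesters E proteins from factors such as TWIST1, had 0 counts in all 3 CPT libraries and 0.0688 ± 0.081 CPM in Con, against 1.95 ± 0.57 in GTA+5-Aza and 1.51 ± 0.54 in CPT+GTA+5-Aza (edgeR adjusted p = 1.23e-07). Like TWIST1, ID4 passed the filter on low counts through the primed groups, so it could be called only as higher. The other 3 called genes were named after their values were seen. Its relative ID3 rose by 0.19 (edgeR adjusted p = 0.0049), ID2 fell by 0.42 (1.82e-07), and TCF3, which encodes the E proteins E12 and E47 that pair with TWIST1, fell by 0.16 (0.0187). Of 15 further factors tied to EMT, 8 were tested, 3 were higher and 1 lower, at a median of 0.27. FOXQ1, a forkhead factor, rose by 1.68 on the log2 scale, from 0.439 ± 0.33 CPM in Con to 1.49 ± 0.48 in GTA+5-Aza (edgeR adjusted p = 0.00322). FOXQ1 passed the filter on low counts only with its primed libraries. SOX4 rose by 0.92 (edgeR adjusted p = 0.000619), and SOX9, named after its values were seen, by 0.46 (2.71e-09). The lower member was again TCF3.

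Corepressors that SNAI and ZEB proteins recruit were tested in 16 of 16 cases, with 2 higher and 7 lower and a log2 median of -0.11. The 2 that rose were AJUBA, a LIM adaptor that binds Snail, by 0.56 (edgeR adjusted p = 4.85e-07), and the histone demethylase KDM1A, by 0.12 (0.0341). Among the 7 that fell were CTBP2 and CTBP1, corepressors that ZEB proteins bind, by 0.35 (edgeR adjusted p = 3.43e-06) and 0.31 (4.45e-05), the chromatin remodeler SMARCA4, by 0.29 (3.56e-06), and the histone methyltransferase SUV39H1, by 0.26 (0.000818). The other 3, SUZ12 and EZH2 of the Polycomb complex and the arginine methyltransferase PRMT5, fell by 0.16, 0.12 and 0.14 (edgeR adjusted p = 0.0183, 0.036 and 0.0101). All 9 were named after their values were seen. Of 13 genes that control the stability of the SNAI and TWIST proteins, 12 were tested, 0 were higher and 3 lower by edgeR (0 higher and 6 lower at an unadjusted P under 0.05), at a median of -0.09. The 3, also named after their values were seen, were the kinase gene GSK3B, which marks Snail for degradation and fell by 0.26 (edgeR adjusted p = 0.000305), the phosphatase gene PPP2CA, which fell by 0.20 (0.00434), and the ubiquitin ligase gene MDM2, which fell by 0.17 (0.0478).

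Around the silent cadherins CDH1 and CDH2, the junction genes that were tested gave mixed results. Of 22 classical and related cadherins, 5 were tested, 1 was higher and 0 lower by edgeR (1 and 1 at an unadjusted P under 0.05), and the median log2 fold change of the 5 was -0.75. CDH24, a type II cadherin, rose by 0.82 on the log2 scale, from 21 ± 2.52 CPM in Con and 21.4 ± 1.44 in CPT to 37.6 ± 3.83 in GTA+5-Aza and 37.1 ± 2.95 in CPT+GTA+5-Aza (edgeR adjusted p = 1.45e-08). Of 10 catenins and relatives, which link cadherins to the cytoskeleton, 7 were tested, 4 were higher and 2 lower, at a median of 0.12. JUP, which encodes plakoglobin, went from 22.3 ± 1.77 CPM in Con to 41.1 ± 3.43 in GTA+5-Aza and from 21.1 ± 0.49 in CPT to 37.9 ± 1.72 in CPT+GTA+5-Aza, a rise of 0.86 (edgeR adjusted p = 9.31e-10). ARVCF rose by 0.76 (edgeR adjusted p = 1.21e-05). The other called genes, named after their values were seen, changed less. CTNNB1, the β-catenin gene, rose by 0.12 (edgeR adjusted p = 0.0314) and CTNND1, the p120-catenin gene, by 0.17 (0.00377), while the vinculin gene VCL fell by 0.12 (0.0137) and PKP4 fell by 0.28 (1.37e-05).

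Among 20 intermediate filament genes, VIM included, 13 were tested, 7 were higher and 3 lower, and the log2 median was 0.11. KRT8, KRT18 and KRT19, named after their values were seen, are on this list, the epithelial list and the list of PDAC epithelial markers. The counts of those lists are therefore not independent. In Con these keratins were at 1540, 732 and 32.5 CPM, and in GTA+5-Aza at 1694, 817 and 39.2. NES and SYNM encode proteins that assemble with vimentin, and both rose while VIM fell. NES, the nestin gene, rose by 1.97 on the log2 scale, from 2.11 ± 0.33 CPM in Con and 1.25 ± 0.62 in CPT to 6.88 ± 1.58 in GTA+5-Aza and 5.99 ± 0.20 in CPT+GTA+5-Aza (edgeR adjusted p = 3.98e-08). SYNM, the synemin gene, rose by 0.88, from 23 ± 3.1 CPM in Con to 43.7 ± 2.69 in GTA+5-Aza (edgeR adjusted p = 8.62e-09). The keratin genes KRT7 and KRT81 rose by 1.87 (edgeR adjusted p = 0.00069) and 1.35 (0.00789) from 0.389 and 0.510 CPM in Con, and KRT81 has near-identical relatives with which reads may be shared. Besides VIM, the genes that fell were the lamin gene LMNB1, by 0.18 (edgeR adjusted p = 0.000321), and the keratin gene KRT80, by 0.25 (0.000449), both named after their values were seen.

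**Figure D4:**
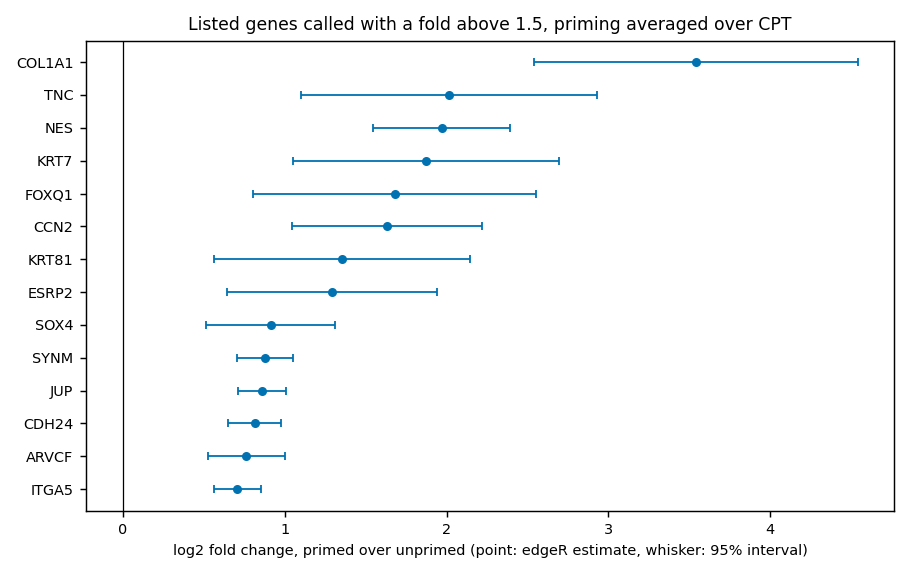
Log2 fold changes of primed over unprimed libraries, averaged over CPT, for 14 listed genes with an adjusted p under 0.05 and a fold above 1.5 (points are edgeR estimates, whiskers 95% intervals; 6 libraries per side). ID4 is left out because it was at 0 in CPT. All 14 lie above 0, from 0.71 for ITGA5 to 3.54 for COL1A1, and the low genes at the top have the widest intervals. COL1A1, TNC and FOXQ1 passed the filter on low counts only with their primed libraries, so they could hardly have appeared below 0.

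These 15 genes, ID4 included, were picked by the averaged test on the same libraries, so their counts in the separate comparisons are a description only. In GTA+5-Aza against Con 13 passed (not ESRP2 or TNC), where 17.5% of all tested genes were called. In CPT+GTA+5-Aza against CPT 12 passed (not FOXQ1, KRT7 or KRT81), where 17% were called. In CPT+GTA+5-Aza against Con 11 passed (not ESRP2, TNC, FOXQ1 or KRT81), where 16.8% were called.

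The line's identity and other cell types were checked with marker lists. Total counts per library ran from 16162490 to 21224665. KRT8 and KRT18, keratins of simple epithelium with many pseudogenes, were at 1540 ± 54.8 and 732 ± 41.4 CPM in Con, while EPCAM had at most 1 count in a library. The 11 PDAC epithelial markers summed to 2197 to 2634 CPM in unprimed and 2531 to 2698 in primed libraries, with 2 at 0 in all. Of these, 6 were tested, and with priming averaged over CPT, where 16.8% of all genes were higher and 14% lower, 4 were higher and 1 lower, the squamous factor gene TP63, named after its values were seen, which fell by 0.50 (edgeR adjusted p = 9.34e-08). The 10 fibroblast markers summed to 780 to 932 CPM in unprimed and 917 to 1069 in primed libraries, and 3 were tested. By edgeR all 3 were higher with priming averaged over CPT and in GTA+5-Aza against Con, 2 in CPT+GTA+5-Aza against CPT and 1 in CPT+GTA+5-Aza against Con. They were COL1A1, with 8 counts in Con, 7 in CPT, 97 in GTA+5-Aza and 75 in CPT+GTA+5-Aza, so that it passed the filter on low counts through the primed groups, and, named after their values were seen, COL1A2, at 810 ± 28.3 CPM in Con and 897 ± 39.8 in GTA+5-Aza, and COL3A1, at 93.1 ± 6.35 and 118 ± 6.30. Of the untested fibroblast markers, LUM and FAP were at 0 in all 12 libraries. DCN, POSTN, PDGFRA, PDGFRB and THY1 had at most 2, 1, 4, 10 and 14 counts in a library. COL1A1, COL1A2, COL3A1, PDGFRB and FAP are on both the fibroblast and the mesenchymal list, and the part of other cells in the rise of the mesenchymal genes was not tested. Immune markers (8 genes) summed to at most 1.74 CPM and endothelial markers (6 genes, 4 at 0) to at most 1.53 CPM, with 0 of 1 tested gene called in each.

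The genes whose levels most resembled each tested member over the 12 libraries were found by Pearson correlation of log2 CPM, given as a description since the libraries share their treatments. For TWIST1 they were KSR1, a scaffold of RAF signaling (r = 0.9898), OLFML2A (0.9882) and JUP (0.9878), with log2 fold changes of 1.31, 1.36 and 0.86 with priming. For SNAI1 they were PPIC-AS1 (r = 0.9411), CCDC89 (0.9064) and RAB3D (0.8902). SNAI2 was closest to HYCC1 (r = 0.9312), IFT74 (0.924) and DIDO1 (0.9115), and ZEB1 to ASB7 (0.9513), TRIP11 (0.9398) and G2E3 (0.9324). VIM was closest to USP25 (r = 0.9703), PABPC4 (0.9684) and PABPC4-AS1 (0.9645), whose log2 fold changes with priming were -0.27, -0.27 and -0.26. The 12 libraries form 4 treatment groups, and for TWIST1, at 0 in most unprimed libraries, such a correlation describes little beyond the split between primed and unprimed cells. Near SNAI1, the lncRNA LINC01270 was the gene within 500 kb that rose by more than 1.5-fold, by 1.67 on the log2 scale (edgeR adjusted p = 0.0106).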

How the data were processed

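RNA-seq was performed on 12 MiaPaca2 libraries, 3 in each of 4 groups taken from the sample labels. Trimming by the authors used Trim Galore, alignment to GRCh38 used HISAT2 2.2.1, and reads were counted per gene by HTSeq. The deposited values are raw counts. The annotation release and strand setting are not given in the sources used here. Identifiers were mapped by GENCODE v44, which held 52181 of 63677. Counts were fitted in R 4.3.3 with edgeR 4.0.16 (filterByExpr, TMM, glmQLFit and glmQLFTest) over all 12 libraries, and 17123 genes were tested. DESeq2 1.42.0, other scalings, filters and tests, a replicate block and leaving out each library were alternatives, and sums with antisense genes were added after seeing the data. The method was tested on simulated data. CPM and RPKM used TMM-scaled library sizes and the union of exons. Replicate pairs differed by more than counting noise, with chi-square per degree of freedom of 3.88 to 16.6 over 12 pairs.

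The 9 members and the gene lists were chosen with earlier results of these data known. The genes named are the members, listed genes with an adjusted p under 0.05 and a fold above 1.5 with priming averaged over CPT, the 3 genes most correlated with each called member, genes overlapping a member, and genes within 500 kb that passed the same thresholds. Exceptions are marked in the text. One gene was left out of the mesenchymal list for a reason unrelated to its values and is not reported here, so that list's counts and median are without it.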

Additional observations from a re-analysis of the deposited data

Results flagged for a closer look

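The fitted response of TWIST1 to CPT was 4.32 higher on the log2 scale in primed than in unprimed cells, tested as the interaction of CPT and priming (edgeR adjusted p = 1), so a different response was not shown. It is listed here for its unadjusted P under 0.05, and the fitted value depends on the prior count, since CPT stood at 0 counts. The value rests on 8 counts in Con replicate 2, the only TWIST1 reads in the 6 unprimed libraries. Without that library the value was -0.07.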

How the results depend on the processing

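TWIST1 was called in all 4 priming comparisons under every alternative run. Requiring a fold change of 1.5 in the test (glmTreat) left 1 member, TWIST1, in GTA+5-Aza against Con, in CPT+GTA+5-Aza against CPT, in CPT+GTA+5-Aza against Con and in priming averaged over CPT, since the other called members changed by less than that. The likelihood ratio test also left 1 in CPT+GTA+5-Aza against Con. For priming averaged over CPT, scaling by total count left 3 of the 5 members and no filter on low counts left 3. Leaving out 1 library at a time gave 1 to 2 members in CPT+GTA+5-Aza against Con and 2 to 5 in priming averaged over CPT, and the libraries are named with each gene above. The shares of all genes called under the alternatives, the replicate block included, are not given here. Whether the members lost their calls more than other genes did was not tested.

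Changes of sign, other than values that round to 0, occurred only in the CPT comparisons and the interaction, where no member was called. Leaving out 1 library at a time gave log2 values of -0.264 to 0.073 for TWIST1, -0.048 to 0.316 for SNAI1 and -0.068 to 0.098 for ZEB1 in CPT+GTA+5-Aza against GTA+5-Aza, and -0.181 to 0.109 for SNAI1 and -0.136 to 0.056 for ZEB1 in CPT against Con. In the interaction it gave -0.068 to 4.88 for TWIST1, -0.018 to 0.347 for SNAI1, -0.039 to 0.154 for ZEB1 and -0.020 to 0.041 for VIM. Summing ZEB1 with ZEB1-AS1 gave -0.021 in CPT+GTA+5-Aza against GTA+5-Aza. The cause of these changes was not tested. Scaling by total count moved the median log2 fold change of all genes in GTA+5-Aza against Con from 0.0069 to 0.0473.

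Replicate numbers were shared between groups, and no steady pairing by number was seen. Deviations of same-numbered libraries correlated at -0.52 to 0.56 over 18 pairs, and 2 of 12 libraries correlated best with their own number. Differently numbered libraries of different groups correlated at -0.52 to 0.49 over 36 pairs. Whether libraries share a factor that does not follow the numbers was not tested. With the replicate block the members called were 3, 2, 2 and 5 in the 4 priming comparisons, 0 in the others, as without it. Depth limits what can be said of TWIST2, ZEB2, CDH1 and CDH2, which held at most 12 counts in all libraries together. With the longest coding transcript as the gene length, TWIST1 and SNAI2 changed places in the order of CPT+GTA+5-Aza, and CDH1 and ZEB2, both near 0, in that of CPT.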
